A study of Oryza sativa Japonica Group with 6 samples.

Results

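JAZ proteins are the repressors of jasmonate signalling in plants, and 10 rice loci of this family, of 55801 loci in the deposited tables, are described here in a mutant of the chromatin remodeller gene OsINO80. The members were taken as a fixed list of locus numbers: LOC_Os03g08310 (JAZ9), LOC_Os03g08320 (JAZ11) and LOC_Os03g08330 (JAZ10), which lie side by side on chromosome 3, LOC_Os10g25230 (JAZ13), LOC_Os10g25250 and LOC_Os10g25290 (JAZ12) on chromosome 10, and the separate loci LOC_Os03g28940 (JAZ6), LOC_Os04g55920 (JAZ1), LOC_Os07g42370 (JAZ7) and LOC_Os09g26780 (JAZ8). Messenger RNA was sequenced from 3 libraries of osino80 (genotype osino80-2) and 3 of wild type (WT), all of the cultivar Nipponbare, taken as seedlings at the age of 14 days from growth chambers under an SD photoperiod, with no treatment in either genotype. The mutant is represented by this single allele. The labels do not say whether the libraries came from separate plants or whether plants were pooled, so a p-value here reflects variation among libraries, which could be technical.

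In the absence of hormone, JAZ proteins bind MYC-type bHLH transcription factors and recruit corepressors to their target genes. The active hormone, the isoleucine conjugate of jasmonic acid, joins JAZ proteins to the F-box protein COI1, which marks them for breakdown and so frees the transcription factors. JAZ genes are themselves rapidly induced by jasmonate and wounding in plants, a negative feedback that makes their transcripts a common readout of the pathway, and in rice the pathway acts in defence, in growth and in spikelet development.

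Names were assigned from published locus numbers, because the files give no names. The reference table of rice genes holds 9 of the 10 names, each once and on the chromosome given by the locus number, and for all 7 pairs of members on a common chromosome the order by locus number was also the order in the table. By that table JAZ9, JAZ11 and JAZ10 follow each other on chromosome 3 with 0 protein-coding genes starting between neighbours, and 2 protein-coding genes start between JAZ13 and JAZ12 on chromosome 10. The name for LOC_Os10g25250 was not found there, and it is given by its locus number.

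Library totals ran from 61881971 to 66097710 counts in osino80 and from 61426662 to 73293481 counts in WT. The locus taken as OsINO80, LOC_Os03g22900, had 60.6 ± 0.606 CPM (counts per 1000000) in osino80 and 119 ± 2.43 CPM in WT (SD, n = 3 each). Its log2 fold change was -0.97 ± 0.03 (SE, edgeR adjusted p = 2.56e-115). Transcripts of 3 Rubisco small subunit loci, which mark green leaf, summed to 29128 to 29747 TPM (transcripts per 1000000) in osino80 and 31049 to 31382 TPM in WT, and all 3 loci were lower. The 3 root marker loci summed to 20.9 to 21.8 TPM in osino80 and 16.2 to 17.3 TPM in WT. Most of this was the silicon transporter gene Lsi1, at 19.7 TPM on average in osino80 and 15.2 TPM in WT, the only 1 called higher. PIP2.5 and LOC_Os02g44310 did not pass, with log2 fold changes of -0.04 and -0.03, and LOC_Os02g44310 reached at most 0.781 TPM. The part of these tissue markers in the JAZ results was not tested, and in bulk seedling RNA fewer cells of a type and less RNA per cell cannot be told apart.

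In osino80 seedlings 4 of the 10 JAZ members rose and 1 fell. JAZ10 rose 1.69-fold, JAZ11, its neighbour on chromosome 3, fell to 0.682 of the WT level, and the 3 abundant members JAZ1, JAZ7 and JAZ6 rose 1.12-fold to 1.13-fold. JAZ8, JAZ9 and JAZ12 did not pass the test, and JAZ13 and LOC_Os10g25250 were too scarce to be tested. Thus 5 of the 8 tested members, 62.5%, passed an adjusted p of 0.05, where 37.6% of all 24914 tested genes did. Separately by direction, 18.4% of tested genes were called higher and 19.1% lower. The median log2 fold change was 0.17 over the 8 tested members and 0.00 over all tested genes. These figures describe the list, which was chosen with earlier results of these data known, and not the whole family. Of the JAZ loci outside the list 3 were tested and 0 passed, with a median log2 fold change of -0.04. The same 5 members were those whose osino80 and WT values did not overlap, a condition that 45.7% of all tested genes met.

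In the deposited TPM, 3 loci dominated the 10 members. JAZ1, JAZ7 and JAZ6 together made up 90.8% of the summed TPM of the 10 members in osino80 and 90.6% in WT. These shares do not cover the whole family. JAZ3, a JAZ gene outside the 10, averaged 51.4 TPM in osino80 and 52.6 TPM in WT, above JAZ6 in both genotypes. The 10 members summed to 288, 292 and 297 TPM in the osino80 libraries and to 253, 256 and 262 TPM in the WT libraries, and the groups did not overlap. On average the sum was 292 ± 4.94 TPM in osino80 and 257 ± 4.19 TPM in WT (SD, n = 3 each), a ratio of 1.14. For the other 7 members the sums were 23.5 to 30.2 TPM in osino80 and 21.7 to 26.4 TPM in WT, which overlapped.

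**Figure D1:**
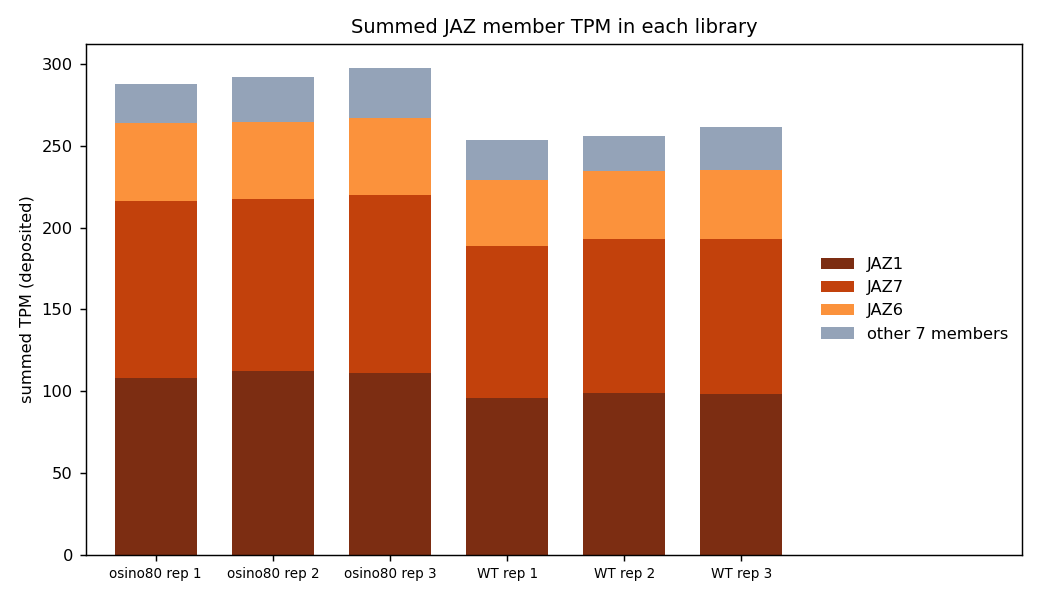
Summed TPM of the 10 JAZ members (vertical axis) in each osino80 and WT library (bars), divided into JAZ1, JAZ7, JAZ6 and the other 7 members. The osino80 bars reach 288 to 297 TPM and the WT bars 253 to 262 TPM, and JAZ1, JAZ7 and JAZ6 fill 90.8% and 90.6% of them.

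JAZ1, known in rice as EG2 for its role in spikelet development, had the highest mean TPM of the members in both genotypes, although its osino80 libraries overlapped with those of JAZ7. It was present at 108, 112 and 111 TPM in the osino80 libraries, against 95.9, 98.9 and 98.2 TPM in the WT libraries. Every osino80 library lay above every WT library. On the counts, its log2 fold change was 0.17 ± 0.03 (SE, edgeR adjusted p = 2.48e-07), from 89.5 ± 1.02 CPM in osino80 and 79.6 ± 2.03 CPM in WT (SD, n = 3 each).

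JAZ7 followed closely. Its level was 108, 105 and 109 TPM in osino80, against 92.8, 93.9 and 95.1 TPM in WT, again without overlap. On the counts it averaged 147 ± 3.21 CPM in osino80 and 130.1 ± 0.346 CPM in WT (SD, n = 3 each), and the log2 fold change was 0.18 ± 0.02 (SE, edgeR adjusted p = 5.53e-11). The ratio of JAZ1 to JAZ7 in TPM was 1.03 ± 0.0362 in osino80 and 1.04 ± 0.0124 in WT (SD, n = 3 each).

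JAZ6 ranked below these 2. All 3 osino80 libraries had 47.4 TPM, against 40.2, 41.6 and 41.9 TPM in the WT libraries, so that the groups were separate here too. The log2 fold change on the counts was 0.16 ± 0.05 (SE, edgeR adjusted p = 0.00177). These 3 rises were close in size to the median absolute log2 fold change of 0.16 over all tested genes. They were smaller than the median of 0.27 over all genes called in this comparison, of which 80.5% changed by less than 1.5-fold.

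**Figure D2:**
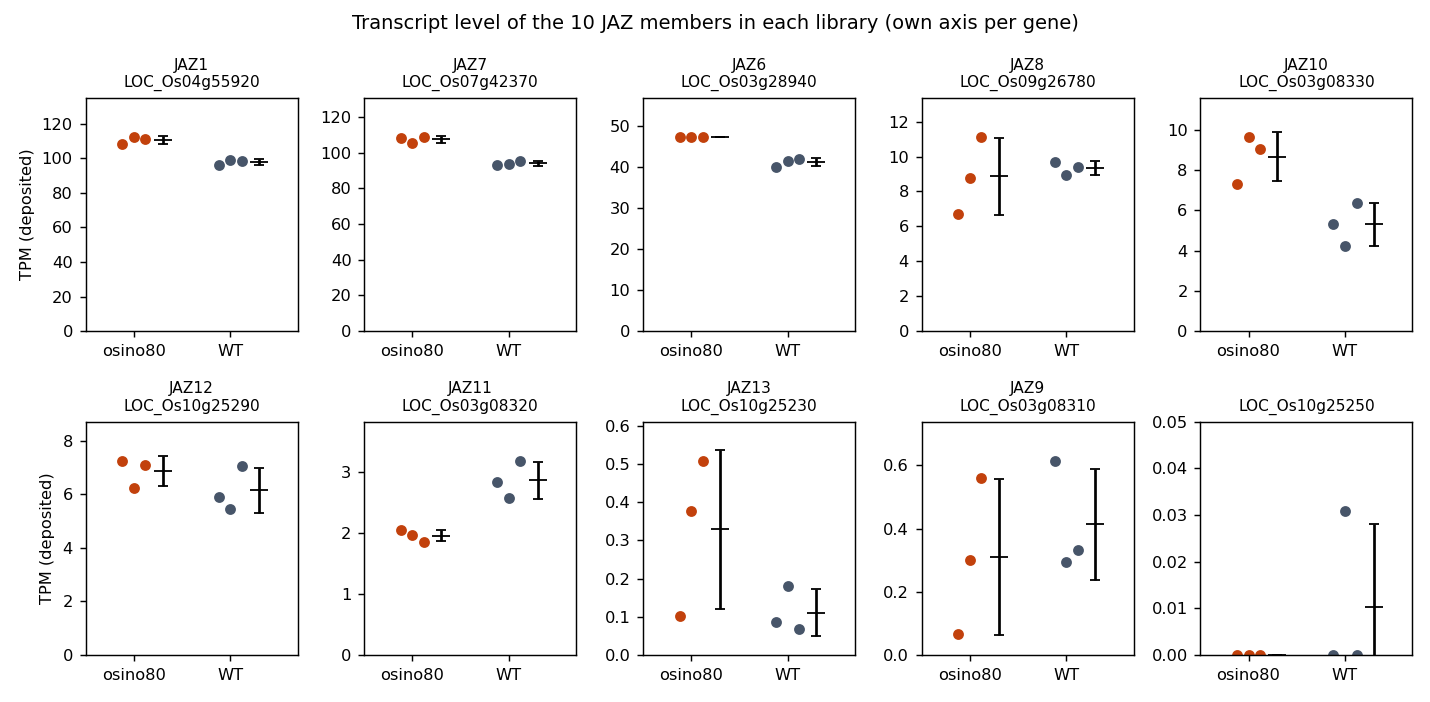
Deposited TPM (vertical axis, a separate scale from 0 for each gene) of the 10 members in the osino80 libraries (orange) and the WT libraries (grey), with mean and SD beside the points. The groups are separate for JAZ1, JAZ7, JAZ6, JAZ10 and JAZ11 and overlap for the other 5 members.

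In the chromosome 3 cluster the genotype differences ran in opposite directions. JAZ10 had 7.33, 9.66 and 9.05 TPM in the osino80 libraries, against 5.31, 4.25 and 6.35 TPM in the WT libraries, and 359, 459 and 471 counts in osino80 against 297, 232 and 281 in WT. The lowest osino80 library stood above the highest WT library. It changed by 0.76 ± 0.12 on the log2 scale (SE, edgeR adjusted p = 8.56e-09), the largest rise among the 8 tested members.

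JAZ11, a JAZ gene linked in rice to root growth and phosphate, was less abundant. Its TPM was 2.05, 1.97 and 1.86 in the osino80 libraries, against 2.83, 2.59 and 3.20 in the WT libraries, and it had 115, 112 and 111 counts in osino80 against 190, 166 and 173 in WT. All osino80 values were below all WT values, and the change was -0.55 ± 0.18 on the log2 scale (SE, edgeR adjusted p = 0.00813). In the deposited TPM, JAZ10 was thus 3.58, 4.89 and 4.86 times as abundant as JAZ11 in the osino80 libraries. In the WT libraries it was 1.87, 1.64 and 1.99 times as abundant.

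JAZ9, which has been tied to salt tolerance in rice, was scarce. Its counts were 4, 10 and 20 in the osino80 libraries and 32, 12 and 14 in the WT libraries, so the groups overlapped. The estimate of -0.66 ± 0.56 on the log2 scale (SE, edgeR adjusted p = 0.374) has an error nearly as large as its size, and a difference was not detectable at this depth. Leaving out 1 library moved it between -1.31 without osino80 replicate 3 and -0.18 without WT replicate 1. The 3 genes are similar tandem copies, and how reads matching several of them were counted is not given in the sources used here, so the division of reads among them is uncertain.

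Loci next to the chromosome 3 cluster changed less than JAZ10 and JAZ11. Of the 5 listed loci on each side, 8 were tested, 3 were higher and 1 was lower, where 37.6% of all tested genes were called. None of these changed 2-fold. The log2 fold changes lay between -0.15 and 0.19, a range that holds those of JAZ1, JAZ7 and JAZ6. The changes of JAZ10 and JAZ11, at 0.76 and -0.55, lay outside that range.

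**Figure D3:**
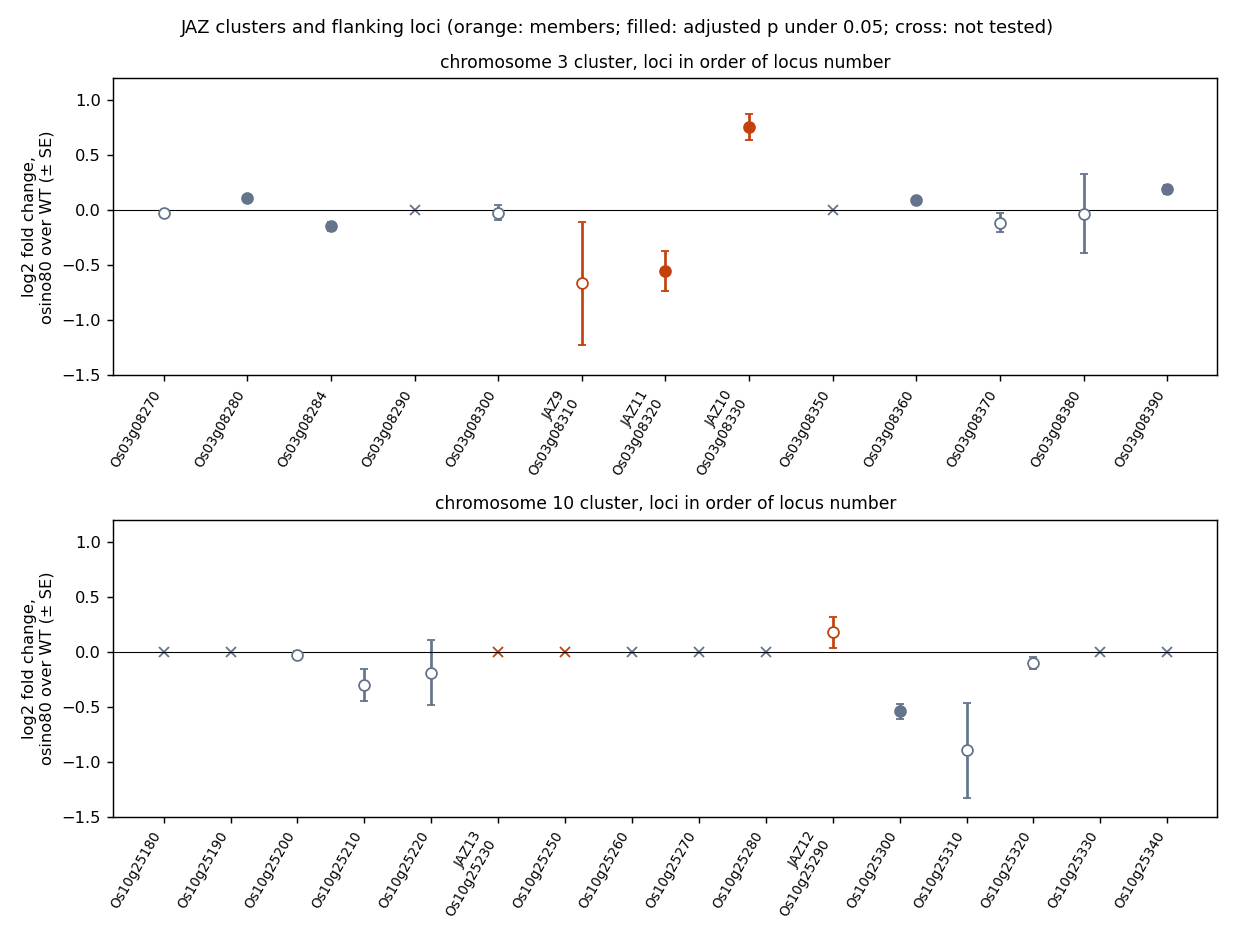
Log2 fold change of osino80 over WT with SE (vertical axis) for loci in order of locus number (horizontal axis) around the chromosome 3 and chromosome 10 clusters. JAZ10 at 0.76 and JAZ11 at -0.55 lie outside the -0.15 to 0.19 range of the tested loci that flank them, and most loci inside the chromosome 10 cluster were not tested.

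The chromosome 10 cluster was expressed almost entirely through JAZ12. JAZ12 had 7.27, 6.26 and 7.10 TPM in the osino80 libraries and 5.92, 5.46 and 7.07 TPM in the WT libraries, and the groups overlapped. Its log2 fold change was 0.18 ± 0.14 (SE, edgeR adjusted p = 0.340). This estimate is as large as that of JAZ7, whose error was 0.02.

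JAZ13 gave 4, 12 and 22 counts in the osino80 libraries and 6, 9 and 4 in the WT libraries. The groups overlapped and the locus did not pass the low-count filter. Without that filter its log2 fold change was 1.07 ± 0.81 (SE, edgeR adjusted p = 0.383). LOC_Os10g25250 had 0 counts in each osino80 library and 2 counts in WT, both in replicate 2. In osino80 a count of 0 allows up to 3 counts over the genotype, or 0.0158 CPM. This limit is too narrow if each read of a pair was counted. Of the 13 loci beside or between these members, 6 were tested and 1 passed, where 37.6% of all tested genes did. It was LOC_Os10g25300, at -0.54 ± 0.07 on the log2 scale (SE, edgeR adjusted p = 1.19e-13). That locus, which falls short of 2-fold and was singled out after its values were seen, is the one numbered next after JAZ12.

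JAZ8, a separate locus on chromosome 9 tied to bacterial blight resistance in rice, varied widely between the osino80 libraries. It was found at 6.73, 8.74 and 11.1 TPM in the osino80 libraries and at 9.71, 8.93 and 9.39 TPM in the WT libraries. Of the osino80 libraries 2 lay below and 1 above all WT libraries. In CPM the coefficient of variation was 20.9% in osino80 and 3.61% in WT. At -0.07 ± 0.10 on the log2 scale (SE, edgeR adjusted p = 0.623) it did not pass, and its sign changed without osino80 replicate 1, at 0.06.

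The order of the levels was nearly the same in both genotypes. By mean TPM it ran JAZ1, JAZ7, JAZ6, JAZ8, JAZ10, JAZ12, JAZ11, JAZ13, JAZ9 and LOC_Os10g25250 in osino80. In WT JAZ12 stood before JAZ10 and JAZ9 before JAZ13. Neighbours whose libraries overlapped were JAZ1 and JAZ7, JAZ8 and JAZ10, and JAZ13 and JAZ9 in osino80, and JAZ12 and JAZ10 in WT. JAZ10 thus stood clear of JAZ12 in osino80, with a lowest library of 7.33 TPM against a highest of 7.27 TPM for JAZ12, but not in WT.

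In TMM-scaled CPM, WT replicate 3 was the highest WT library for 7 of the 8 tested members, JAZ9 being the exception, and for 34.1% of all tested genes. For JAZ7 (130.4 against 130.3 CPM in WT replicate 2) and JAZ8 (7.73 against 7.72 CPM in WT replicate 1) the lead was slight, and in the deposited TPM WT replicate 3 was the highest for 5 of the 8. Among osino80 libraries, replicate 3 was the highest in CPM for 4 of the 8 members and for 32.8% of all tested genes. Leaving out WT replicate 3 gave JAZ10 a log2 fold change of 0.87 and JAZ11 one of -0.49, and both kept their calls (edgeR adjusted p = 2.22e-08 and 0.0470).

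**Figure D4:**
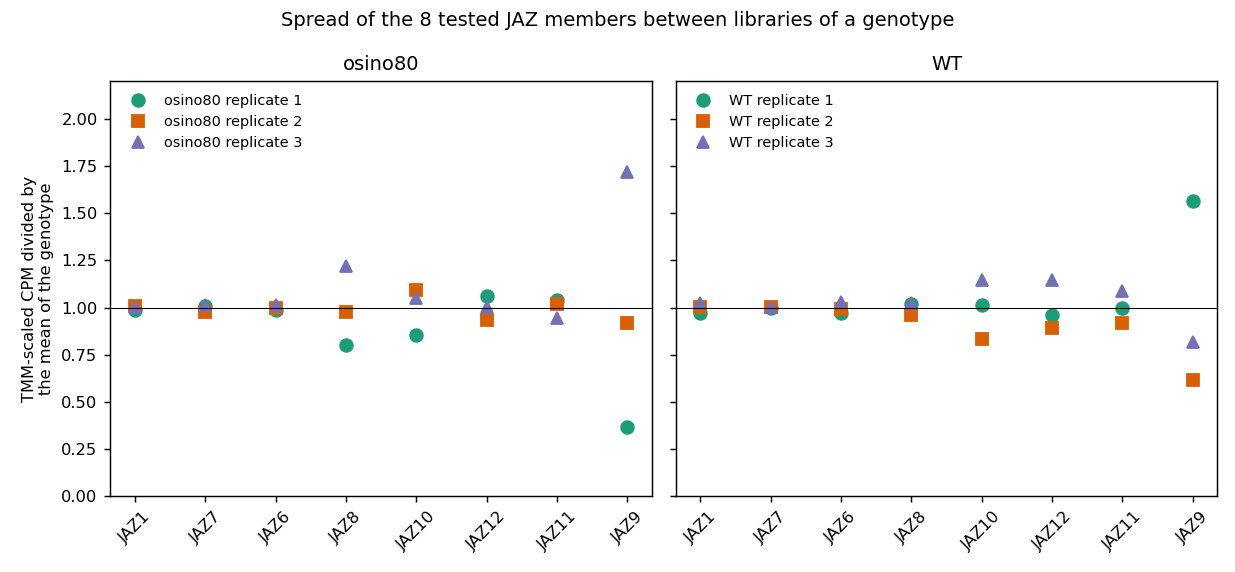
TMM-scaled CPM of each library divided by the mean of its genotype (vertical axis) for the 8 tested members (horizontal axis), osino80 in the left panel and WT in the right, with a symbol for each replicate. WT replicate 3 is the highest WT library for every member except JAZ9, and the spread is widest for JAZ9 in both genotypes.

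Of 5 further JAZ loci listed from published locus numbers 3 were tested. None passed with edgeR (0 at an unadjusted p under 0.05), DESeq2 or limma voom, where 37.6% of all tested genes passed with edgeR. JAZ3 was abundant, with 51.4, 52.4 and 50.2 TPM in the osino80 libraries and 52.0, 52.9 and 53.0 TPM in the WT libraries, and its log2 fold change was -0.04 ± 0.03. JAZ4 had 19.8 ± 1.04 TPM in osino80 and 18.4 ± 1.41 TPM in WT (SD, n = 3 each), a log2 fold change of 0.09 ± 0.06. JAZ5 was scarce, at 66 counts over the osino80 libraries and 111 over the WT libraries, with a log2 fold change of -0.67 ± 0.43. JAZ2 and LOC_Os03g27900 had 0 counts in all 6 libraries, which allows up to 0.00760 CPM over the libraries together. That is a limit of counting error only, and too narrow if each read of a pair was counted. With these 5 loci added to the members, the 15 listed JAZ genes summed to 364 ± 4.76 TPM in osino80 and 329 ± 3.36 TPM in WT (SD, n = 3 each).

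Other pathway genes, on lists of published locus numbers, were read from the same test. In the list of jasmonate synthesis and conjugation 5 of 6 genes rose and none fell. Of all tested genes 18.4% were called higher and 19.1% lower. The median log2 fold change was 0.20 over the list and 0.00 over all tested genes. The calls of AOS1, AOS2 and OPR7 were lost under several alternatives. JAR1, the enzyme that joins jasmonic acid to isoleucine, had 101, 99.7 and 101 TPM in the osino80 libraries and 85.5, 91.0 and 89.4 TPM in the WT libraries. The groups were separate, and its change of 0.19 ± 0.02 on the log2 scale (SE, edgeR adjusted p = 9.50e-13) was close in size to those of JAZ1 and JAZ7. LOC_Os01g12160, whose name the reference table does not hold, had 15.9 ± 0.328 TPM in osino80 and 13.2 ± 0.138 TPM in WT (SD, n = 3 each), a change of 0.28 ± 0.05 on the log2 scale (SE, edgeR adjusted p = 3.10e-07).

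Calls for the other enzymes were lost under several alternatives, among them limma on both TPM scales for OPR7, AOS1 and AOS2 (adjusted p between 0.151 and 0.275). AOS2 also lost its call with no low-count filter (edgeR adjusted p = 0.0686) and with robust=FALSE (0.0513). OPR7, an oxophytodienoate reductase gene, rose by 0.10 ± 0.04 on the log2 scale (edgeR adjusted p = 0.0226). It no longer passed without osino80 replicate 1 (edgeR adjusted p = 0.0577) or 2 (0.0563) or WT replicate 2 (0.0676) or 3 (0.229), in a range of edgeR, DESeq2 and limma adjusted p of 0.00383 to 0.229. The allene oxide synthase genes AOS1 and AOS2 rose by 0.24 ± 0.09 and 0.21 ± 0.09. AOS1 no longer passed when osino80 replicate 1 was left out (edgeR adjusted p = 0.197) or WT replicate 1 (0.0982) or 2 (0.0936), and AOS2 without osino80 replicate 3 (0.326) or WT replicate 2 (0.188) or 3 (0.0631). Over all alternatives the edgeR, DESeq2 and limma adjusted p ranged from 0.00778 to 0.197 for AOS1 and from 0.0381 to 0.326 for AOS2. The cyclase gene AOC, at 0.03 ± 0.03, did not pass.

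None of the 3 receptor genes passed with edgeR (0 of them at an unadjusted p under 0.05), with DESeq2 or with limma voom. With edgeR 37.6% of all tested genes passed, and 3 genes are too few to set apart from that share. COI1B had 86.9 ± 1.31 TPM in osino80 and 85.1 ± 1.80 TPM in WT (SD, n = 3 each), a log2 fold change of 0.02 ± 0.02. COI2 was at -0.04 ± 0.04 and COI1A at -0.03 ± 0.03 on the log2 scale.

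Among 3 transcription factor loci 2 rose, where 18.4% of all tested genes were called higher. LOC_Os10g42430, whose name the reference table does not hold, had 48.9, 47.7 and 46.7 TPM in the osino80 libraries and 41.8, 42.7 and 43.0 TPM in the WT libraries. Its groups did not overlap, and it changed by 0.16 ± 0.03 on the log2 scale (SE, edgeR adjusted p = 1.22e-06). The gene bHLH148 (BHLH148), whose product binds JAZ proteins in rice, had 4.30, 3.12 and 4.04 TPM in the osino80 libraries and 2.81, 2.95 and 2.60 TPM in the WT libraries. It rose by 0.47 ± 0.16 on the log2 scale (edgeR adjusted p = 0.0103), but not when osino80 replicate 1 (0.0861) or WT replicate 3 (0.0523) was left out or with limma on log2(TPM + 0.1) (0.0530), in a range of edgeR, DESeq2 and limma adjusted p of 0.00381 to 0.0861. LOC_Os04g23550, likewise without a name in the table, had 44, 47 and 57 counts in osino80 and 35, 22 and 33 in WT. Its log2 fold change of 0.80 ± 0.37 did not pass with edgeR (adjusted p = 0.0725) and passed with DESeq2 (0.0430) and when counts were halved (0.0496), with adjusted p between 0.0430 and 0.248 over its alternatives.

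**Figure D5:**
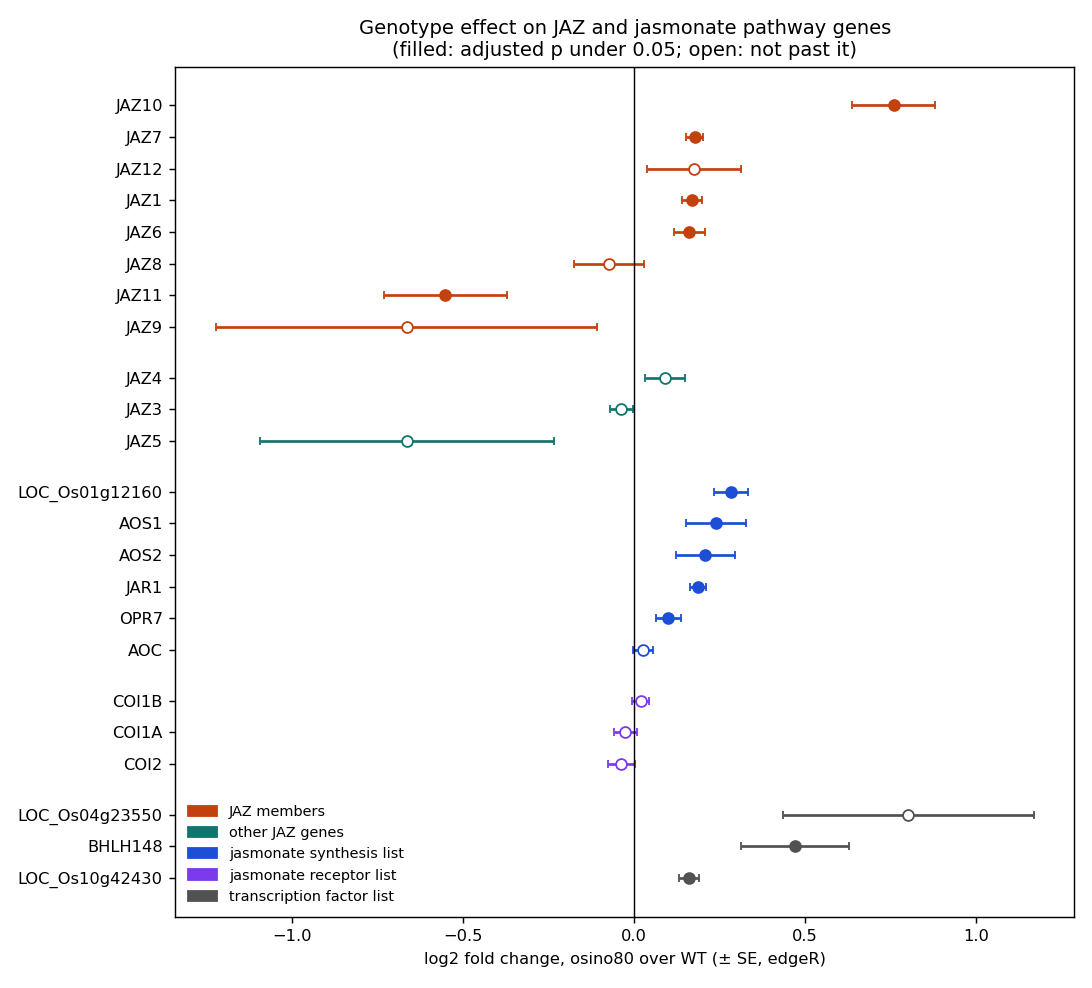
Log2 fold change of osino80 over WT with SE (horizontal axis) for each tested JAZ gene and jasmonate pathway locus (rows, coloured by list, filled where the edgeR adjusted p was under 0.05). JAZ10 lies at 0.76 and JAZ11 at -0.55, the members JAZ1, JAZ7 and JAZ6 at 0.16 to 0.18, and the receptor genes between -0.04 and 0.02.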

How the data were processed

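The authors deposited raw counts per locus and TPM for 55801 loci. Per the submitters' processing notes, the tools were cutadapt, HISAT2, SAMtools and featureCounts, and libraries were made with a stranded mRNA-seq kit, per the labels' protocols. Versions, genome build, annotation, strand setting, multi-mapping reads and how TPM was made were not given in the sources used here. In each library 82.4% to 83.7% of the counts from 1 to 20 were even, the excess that counting each read of a pair would give, so counting limits are too narrow.

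Levels were compared between genes in the deposited TPM, which did not follow the counts by a fixed length. JAZ9 had 0.0660 TPM at 4 counts in osino80 replicate 1 and 0.301 TPM at 10 counts in osino80 replicate 2. LOC_Os10g25260 had 0 counts but 0.0594 TPM in osino80 replicate 1. Genotypes were tested on the deposited counts of all 6 libraries with edgeR 4.0.16 in R 4.3.3 (filterByExpr, TMM, glmQLFit with robust=TRUE, two-sided glmQLFTest, Benjamini-Hochberg adjustment over 24914 genes, threshold 0.05), a procedure tested on simulated data. CPM is TMM-scaled, and SE is the absolute log2 fold change over the square root of F.

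The members and lists were chosen with earlier results of these data known. Named were all members, the other JAZ genes, pathway genes past the threshold (otherwise the 2 with the smallest p), and flanking loci past it with a 2-fold change. Further genes were named after their values were seen. None of the files' locus numbers was found in the reference table (assembly ASM3414082v1), so names were matched by chromosome and order, and no coordinates or sequences are given. DESeq2 1.42.0 and limma 3.58.1 were alternatives. Same-group libraries differed beyond sampling noise (1.81 to 2.05 times its variance on halved counts).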

Additional observations from a re-analysis of the deposited data

How the results depend on the processing

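Over the 17 alternatives run (the replicate block, 2 other scalings, 2 other low-count filters, DESeq2, limma voom, limma on log2(TPM + 1) and on log2(TPM + 0.1), robust=FALSE, halved counts and each library left out in turn), 4 members were called higher and 1 lower every time, and each of the 8 tested members kept its side of the threshold, JAZ9 in the 16 alternatives that tested it. The adjusted p of JAZ11 came closest to it, at 0.0470 without WT replicate 3 with edgeR. The count of all called genes was 9363, from 8275 to 8515 with a library left out and from 7410 to 9644 over the others. With the replicate block 4 members were higher, 1 was lower and 9329 genes were called. Over all tested genes, deviations of libraries with a common number from their genotype means correlated at 0.0117, -0.0173 and 0.00981. No common deviation was seen at that scale, but one limited to some genes would not show there. No scaling moved the median of all tested genes by as much as 0.1 on the log2 scale, but scalings centre most genes near 0 by design. JAZ1, JAZ7 and JAZ6 changed by 0.169, 0.177 and 0.161 on the log2 scale with TMM. With median-of-ratios scaling they changed by 0.171, 0.179 and 0.163, and with upper-quartile scaling by 0.173, 0.181 and 0.164. JAZ13, tested in 6 of the alternatives, passed in none, and its edgeR and DESeq2 adjusted p was lowest without osino80 replicate 1, at 0.109. The depth limits JAZ9, JAZ13 and JAZ5, with 34, 38 and 66 counts over the osino80 libraries and 58, 19 and 111 over the WT libraries.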
